A study of Mus musculus with 35 samples.

Results

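The transcripts of Myc, its neighbouring long noncoding RNA Pvt1 and the genes of the MAX network were followed in hematopoietic stem and progenitor cells (HSPCs) of WT and JMJD1B-/- mice. The 10 genes, Myc, Mycn, Pvt1, Max, Mxd1, Mxd3, Mxd4, Mxi1, Mnt and Mga, were taken by name as members of the network, and all 10 were among the 11982 gene names of the deposited table. JMJD1B, encoded by Kdm3b, is a histone demethylase, and the knockout mice carry a gene-trap allele that came from 129P2 embryonic stem cells. Both genotypes are of the 129P2xC57BL/6J strain, mice of the study were 20 to 40 weeks old and of both sexes, and HSPCs came from the bone marrow without any further treatment given in the labels. Polyadenylated RNA of 2 biological replicates per genotype was sequenced, and how many animals each library holds is not given in the sources used here. Expression is given as RPKM, in which the reads of a gene are divided by its length and by the depth of the library, so that levels of genes of different length can be set side by side.

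MYC proteins bind DNA only as a pair with MAX, at the E-box CACGTG, and activate genes of ribosome production, metabolism and cell division. The MXD proteins and MNT pair with the same MAX at the same E-box but bring in the SIN3 and histone deacetylase corepressors, so that both sides compete for MAX and for sites. MGA pairs with MAX in a polycomb repressor complex. Myc itself is needed in blood stem cells for leaving the niche and for differentiation, and Mycn can partly stand in for it. Pvt1 lies directly downstream of Myc, and its promoter is known to compete with that of Myc for shared enhancers.

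The E-box is shown first, since the network both acts through it and carries it at some of its own genes. Promoter windows of RefSeq (mouse build GRCm38.p6, 250 bases before to 50 bases after a start site) were at hand for 8 of the 10 genes, and 3 of these 8 held CACGTG, which reads the same on both strands. The motif stood in 7.15% of all 32851 windows and, counting genes with any such window, in 11.9% of the 8496 genes of the table that had one. Of 45 genes of a list of Myc-activated genes, 33.3% had it. The 3 windows are those of Mxd4 (chr5:34187711-34187960, minus strand), Mnt (chr11:74830674-74830923, plus strand) and Max (chr12:76962246-76962498, minus strand), printed 5′ to 3′ up to the start site with the E-box in capitals.
Mxd4: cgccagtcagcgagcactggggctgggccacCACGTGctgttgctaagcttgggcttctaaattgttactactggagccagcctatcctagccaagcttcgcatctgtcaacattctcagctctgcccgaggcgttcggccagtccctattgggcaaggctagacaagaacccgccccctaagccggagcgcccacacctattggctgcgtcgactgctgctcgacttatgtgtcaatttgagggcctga
Mnt: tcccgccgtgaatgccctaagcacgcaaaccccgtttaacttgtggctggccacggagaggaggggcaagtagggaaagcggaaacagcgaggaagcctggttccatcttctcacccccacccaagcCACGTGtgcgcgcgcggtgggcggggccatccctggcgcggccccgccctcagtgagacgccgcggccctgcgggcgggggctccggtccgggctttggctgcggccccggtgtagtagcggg
Max: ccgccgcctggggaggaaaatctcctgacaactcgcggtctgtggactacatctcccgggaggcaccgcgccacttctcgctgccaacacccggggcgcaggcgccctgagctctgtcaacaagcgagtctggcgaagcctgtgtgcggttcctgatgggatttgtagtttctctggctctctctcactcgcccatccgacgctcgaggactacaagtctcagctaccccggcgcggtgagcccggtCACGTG
Counted from the start site of each window, the E-box began 219 bases before it in Mxd4 and 123 bases before it in Mnt. It spanned that site in Max, beginning 3 bases before it. The RefSeq spans of Mnt and Max begin elsewhere, at bases 74830806 and 76962323, both inside the printed stretches. The letters CACGTG were not in the windows of Mycn, Mxd1, Mxd3, Mxi1 and Mga. The Mga window, from base 119896978, lies inside the gene, whose span starts at base 119872503. A match of letters is a description of the sequence and not evidence of binding in these cells. Myc and Pvt1 were not matched to a window.

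Depth differed between the libraries. It came to 17492641 and 24574078 reads in WT replicates 1 and 2, and to 6105124 and 21020854 reads in JMJD1B-/- replicates 1 and 2, as computed from the digits of the deposited values. Kdm3b, the targeted gene, had 31.0 and 24.3 RPKM in WT and 4.00 and 4.63 RPKM in JMJD1B-/- HSPCs, a log2 fold change of -2.65 (SE 0.24, limma, adjusted p = 0.0314, or 0.0603 with median-ratio scaling). Marker genes of blood cell types also differed between the libraries. Stem and progenitor markers summed to 298 and 265 RPKM in WT against 166 and 221 RPKM in JMJD1B-/-. The 9 erythroid markers summed to 244 and 356 RPKM against 738 and 1807 RPKM. Of these markers 8 were higher at an unadjusted p under 0.05 in limma, where 3.81% of all genes were. Hba-a1 and Hba-a2 had nearly the same value in every library (371 and 368.5 RPKM in JMJD1B-/- replicate 2). So had Hbb-b1 and Hbb-b2 (437.1 and 448.5 RPKM). The members of each pair are therefore not separate signals, and these globins made up most of each sum. Basophil and mast cell markers summed to 488 and 560 RPKM against 111 and 46.0 RPKM, and megakaryocyte markers to 637 and 576 RPKM against 245 and 354 RPKM. Monocyte and macrophage markers summed to 110 and 134 RPKM against 105 and 26.6 RPKM, low in JMJD1B-/- replicate 2. Of these 7 markers, 3 were lower in both knockout libraries, where 22.7% of all genes were, and the rest overlapped. The 3 were Csf1r, Ly86 and Irf8 (45.9 and 55.0 RPKM in WT against 33.3 and 9.34 RPKM). T and NK cell markers summed to 20.3 and 23.4 RPKM against 42.1 and 12.6 RPKM, high in JMJD1B-/- replicate 1. Within the T and NK list Nkg7 was lower in both knockout libraries (on average 14.7 RPKM in WT against 6.02 RPKM), while Cd3e (1.13 and 1.40 against 7.98 and 2.32 RPKM) and Cd3g (0.444 and 0.474 against 11.7 and 1.66 RPKM) were higher in both. Stroma and endothelium markers summed to 39.7 and 67.2 RPKM against 23.9 and 10.9 RPKM. The largest part was Pecam1 (34.0 and 33.9 against 19.5 and 7.97 RPKM). Col1a1 (0.998 and 15.7 against 2.13 and 0.998 RPKM) and Cxcl12 (0.293 and 5.92 against 1.26 and 0.0996 RPKM) were high in WT replicate 2 alone. Col1a2 and Kdr were lower in both knockout libraries. Of 7 B cell markers, 1 was listed, at 3.28 RPKM or less. WT replicate 2 was the library with Xist, at 332 RPKM, and with the Y gene Ddx3y near 0, at 0.411 RPKM. The part of these differences in the results that follow was not tested, and in whole-population RNA fewer cells of a type and less RNA per cell cannot be told apart.

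Within WT HSPCs, Myc was the most abundant network gene. Its mean of 84.1 RPKM exceeded that of 95.9% of the listed genes. Mga and Max followed at 35.6 and 31.7 RPKM, and the lower Mga library (34.0 RPKM) was next to the higher Max library (33.8 RPKM), a gap smaller than the spread within either gene. Mycn (11.6 RPKM), Mxd4 (11.1 RPKM), Mxd1 (10.9 RPKM) and Pvt1 (8.95 RPKM) formed a middle group whose libraries were interleaved. Mnt (5.98 RPKM) and Mxi1 (5.95 RPKM) were level with each other, and Mxd3 was lowest at 3.19 RPKM, above 21.2% of the listed genes. In JMJD1B-/- HSPCs the order of means was Myc, Max, Mga, Pvt1, Mxd1, Mycn, Mxd4, Mxi1, Mnt and Mxd3. Max and Mga were close, at 35.85 and 35.28 RPKM, and neither knockout library alone held this order between Pvt1 and Mnt. Pvt1 thus stood above 45.6% of the listed genes in WT and above 64.2% in JMJD1B-/-.

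**Figure D1:**
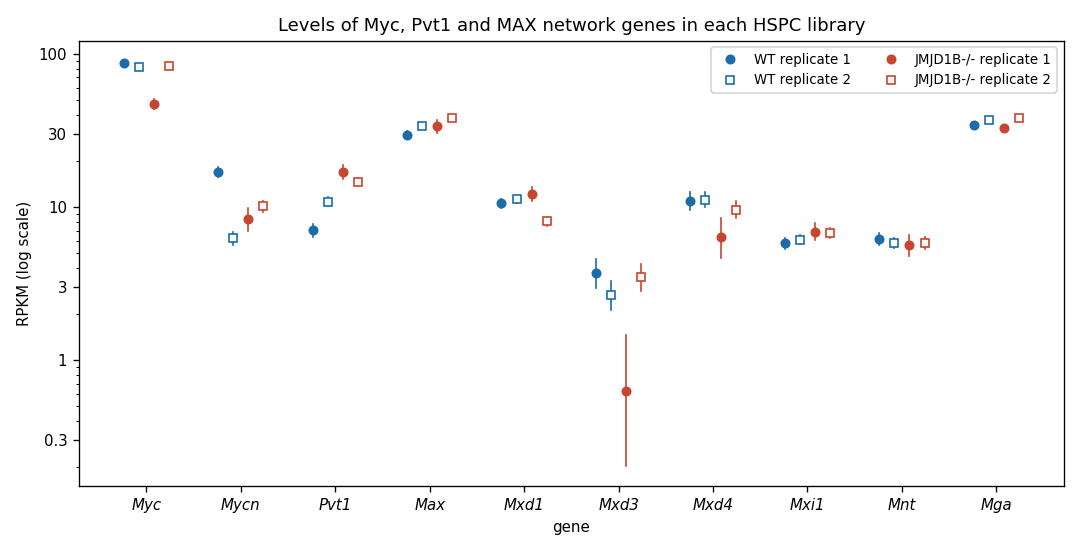
Level of each of the 10 genes in the 4 HSPC libraries, in RPKM on a log axis. Circles are replicates 1, squares replicates 2, blue WT and red JMJD1B-/-; bars are 95% intervals of counting error alone and are left out for Mga, whose transcript length was not resolved. Myc tops every library, Pvt1 is higher in both red points than in both blue ones, and Mxd3 of JMJD1B-/- replicate 1 rests on 5.0 reads.

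To ask which network genes differ between the genotypes, each was tested with limma on log2(RPKM + 0.1) among 11863 genes. No member passed the test after Benjamini-Hochberg adjustment, with 0.0421% of all genes called (5 genes, 0.0337% lower and 0.00843% higher). At an unadjusted p under 0.05, 1 of the 10 members, Pvt1, was higher, where 3.81% of all genes were called higher, and 0 were lower, where 6.33% of all genes were. Over all genes these calls were 751 lower and 452 higher, and after quantile normalization 714 lower and 665 higher. In 3 members both JMJD1B-/- libraries lay outside both WT libraries, Pvt1 and Mxi1 above (20.1% of all genes) and Mxd4 below (22.7% of all genes). The groups of the other 7 overlapped. With 42.9% of all genes not overlapping, 3 of 10 is no more than the share over the whole table.

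Pvt1 is a long noncoding RNA and the host of several microRNAs. It had 7.05 and 10.9 RPKM in WT replicates 1 and 2, and 16.9 and 14.6 RPKM in JMJD1B-/- replicates 1 and 2. Both knockout libraries were higher than both WT libraries, and the genotypes did not overlap. Mean levels were 8.95 ± 2.69 RPKM in WT and 15.8 ± 1.65 RPKM in JMJD1B-/- (SD of 2 libraries each). The difference was 0.84 on the log2 scale (SE 0.27, 95% interval 0.20 to 1.48), or 1.79-fold, with an unadjusted p of 0.0166 and an adjusted p of 0.401 in limma. These levels rest on 380, 822, 319 and 946 reads. Counting error therefore leaves 13.7 to 15.6 RPKM for the lower knockout library and 10.1 to 11.6 RPKM for the higher WT library. For the highest library it leaves 15.1 to 18.9 RPKM. Without WT replicate 1 the log2 fold change was 0.53 with an unadjusted p of 0.166, and without any of the other libraries it was 0.73 to 1.15. Pvt1 is also among the genes that the study itself chose to show from these libraries, so its direction is not independent evidence.

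Myc had 87.0 and 81.3 RPKM in WT and 47.3 and 82.7 RPKM in JMJD1B-/- HSPCs. JMJD1B-/- replicate 1 alone was low, and JMJD1B-/- replicate 2 lay between the WT libraries. The means were 84.1 ± 3.99 and 65.0 ± 25.1 RPKM (SD of 2 libraries each). The log2 fold change was -0.43 (SE 0.27, 95% interval -1.05 to 0.20, limma, unadjusted p = 0.154, adjusted p = 0.627). With the replicate number as a block in limma, the unadjusted p was 0.0482 and the adjusted p 0.394. The low value rests on 693 reads, and its counting interval ran from 43.8 to 50.9 RPKM, below that of every other library. The value for the genotype thus depended on which knockout library was used. It was -0.02 without JMJD1B-/- replicate 1, the shallowest library, and -0.83 without JMJD1B-/- replicate 2 (limma, adjusted p = 0.0307). The knockout libraries were 0.81 apart on the log2 scale, a gap larger than that of 79.3% of the genes tested, while the WT libraries were 0.10 apart.

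Mycn, the paralog with overlapping roles in early progenitors, showed the reverse layout. It had 16.9 and 6.25 RPKM in WT and 8.36 and 10.1 RPKM in JMJD1B-/- HSPCs, so both knockout libraries lay between the WT libraries. The WT libraries differed by 2.71-fold, a wider gap than in 97.8% of the genes tested. The log2 fold change was -0.16 (SE 0.44, limma, adjusted p = 0.929), and it took either sign with a WT library left out, at 0.55 without replicate 1 and -0.87 without replicate 2.

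Max, the common partner, had 29.6 and 33.8 RPKM in WT and 33.6 and 38.1 RPKM in JMJD1B-/- HSPCs. The groups overlapped by a small margin, with JMJD1B-/- replicate 1 just under WT replicate 2. The log2 fold change was 0.18 (SE 0.19, 95% interval -0.26 to 0.62, limma, adjusted p = 0.776). Mga, a large protein with a T-box beside its MAX-binding domain, had 34.0 and 37.1 RPKM in WT and 32.8 and 37.8 RPKM in JMJD1B-/-. The knockout libraries enclosed the WT libraries, and the mean of the knockout was 99.2% of that of WT. The log2 fold change was -0.01 with a 95% interval from -0.44 to 0.42, and it took the other sign without WT replicate 2 (0.05) or JMJD1B-/- replicate 1 (0.09).

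Among the antagonists, Mxd4 was the one whose libraries separated downwards. Mxd4 had 11.0 and 11.2 RPKM in WT and 6.37 and 9.61 RPKM in JMJD1B-/- HSPCs. Both knockout libraries were lower, and the WT libraries were nearly equal. The knockout mean was 72.2% of the WT mean, with a log2 fold change of -0.49 (SE 0.27, 95% interval -1.14 to 0.15, limma, unadjusted p = 0.112, adjusted p = 0.586). JMJD1B-/- replicate 1 rests on 46.1 reads, which leaves 4.66 to 8.49 RPKM. Without that library the difference was -0.20, and without JMJD1B-/- replicate 2 it was -0.79 (limma, unadjusted p = 0.008, adjusted p = 0.0881).

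Mxi1, also called Mxd2, had 5.79 and 6.11 RPKM in WT and 6.90 and 6.75 RPKM in JMJD1B-/- HSPCs. Both knockout libraries were higher, with a mean at 115% of that of WT. In limma a log2 fold change of 0.19 had an SE of 0.26, because the fit shares the spread of all genes at this level, and an adjusted p of 0.83.

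Mxd3, which is known from dividing progenitors, had 3.71 and 2.67 RPKM in WT and 0.628 and 3.49 RPKM in JMJD1B-/- HSPCs. JMJD1B-/- replicate 1 was low, and JMJD1B-/- replicate 2 lay between the WT libraries, the same layout as in Myc. The low value rests on 5.0 reads, against 84.6, 85.5 and 95.7 reads in the other libraries, and its counting interval of 0.204 to 1.47 RPKM lay below the 2.83 to 4.26 RPKM of JMJD1B-/- replicate 2. On the log2 scale the fold change was -1.01 (SE 0.73, limma, adjusted p = 0.67), 0.15 without JMJD1B-/- replicate 1 and -2.16 without JMJD1B-/- replicate 2 (limma, adjusted p = 0.0235).

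Mxd1, induced during myeloid differentiation, had 10.6 and 11.2 RPKM in WT and 12.2 and 8.06 RPKM in JMJD1B-/- HSPCs. The knockout libraries enclosed the WT libraries, and the log2 fold change was -0.14 (SE 0.27, limma, adjusted p = 0.896), or 0.16 without JMJD1B-/- replicate 2. Mnt, the antagonist that most cell types express, had 6.15 and 5.82 RPKM in WT and 5.64 and 5.82 RPKM in JMJD1B-/-. All libraries were within a narrow range, and the log2 fold change was -0.06 (SE 0.27, 95% interval -0.68 to 0.56), or 0.03 after quantile normalization. Summed over the 5 antagonists, the level was 37.2 and 37.0 RPKM in WT and 31.7 and 33.7 RPKM in JMJD1B-/- HSPCs, lower in both knockout libraries.

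**Figure D2:**
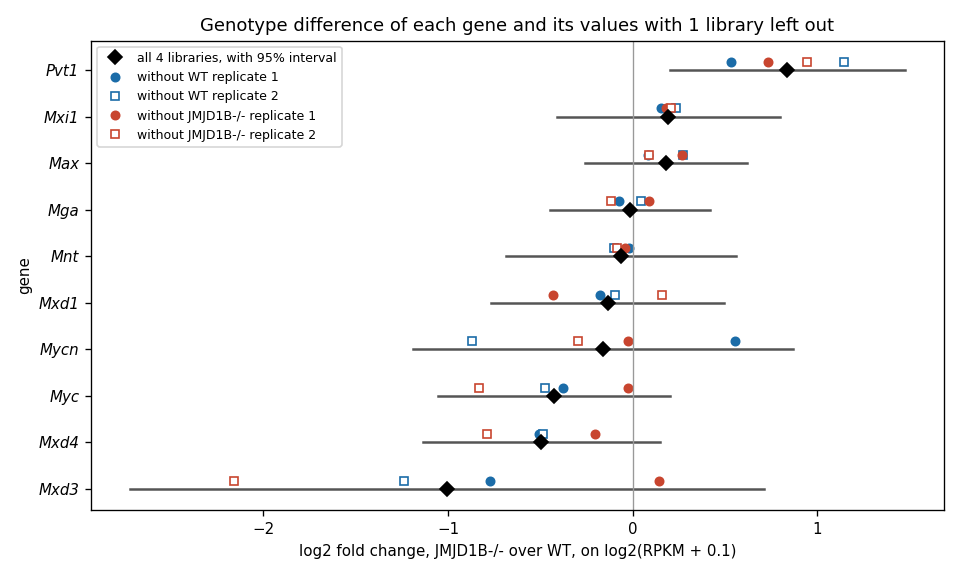
Log2 fold change of each gene, JMJD1B-/- over WT, from all 4 libraries (diamonds, with the 95% interval of limma as a line) and with 1 library left out (circles, a replicate 1 left out; squares, a replicate 2; blue WT, red JMJD1B-/-). Only the interval of Pvt1, 0.20 to 1.48, lies off 0; Myc moves between -0.83 and -0.02 and Mxd3 between -2.16 and 0.15.

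Ratios within a library do not depend on how that library was scaled, and they show how the activator, its partner and its antagonists stood to each other. Myc stood to Max at 2.94 and 2.41 in WT and at 1.41 and 2.17 in JMJD1B-/- HSPCs. Both knockout ratios were lower, and the difference was -0.61 on the log2 scale, or 0.657-fold (exact permutation test, p = 0.333). Leaving out a knockout library gave -0.29 (replicate 1 left out) or -0.92 (replicate 2 left out). With 2 against 2 libraries a p of 0.333 is the smallest that the test can give, so it cannot reach 0.05. Myc stood to the summed antagonists at 2.34 and 2.20 in WT and at 1.49 and 2.45 in JMJD1B-/-, an overlap (exact permutation test, p = 1). Pvt1 stood to Myc at 0.0810 and 0.134 in WT and at 0.358 and 0.177 in JMJD1B-/-. The ratio was higher in both knockout libraries, by 1.27 on the log2 scale or 2.42-fold, and stayed between 0.76 and 1.78 with any 1 library left out (exact permutation test, p = 0.333).

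**Figure D3:**
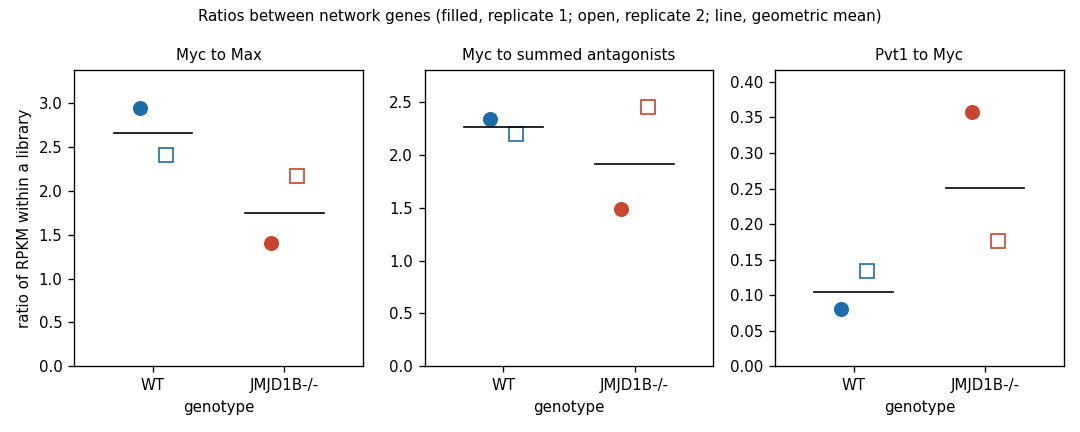
Ratios of RPKM between network genes within each library, on linear axes from 0 (filled circles, replicate 1; open squares, replicate 2; lines, geometric means). The Pvt1 to Myc ratio has geometric means of 0.104 in WT and 0.252 in JMJD1B-/-, and the Myc to antagonist ratio overlaps between the genotypes.

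The other genes around Myc and Pvt1 were examined as neighbours in gene order, with the 3 nearest listed genes on each side. Of these 6 genes, 0 had an unadjusted p under 0.05 in limma, where 10.1% of all genes did. Trib1, a pseudokinase gene, had 1.28 and 1.68 RPKM in WT and 3.37 and 0.260 RPKM in JMJD1B-/-. Fam84b had 3.30 and 2.35 RPKM against 2.03 and 1.95 RPKM, and 9930014A18Rik had 1.05 RPKM on average in the knockout against 1.40 RPKM in WT. Beyond Pvt1, Fam49b had 27.0 and 26.8 RPKM in WT and 27.9 and 20.1 RPKM in JMJD1B-/-. Asap1, a regulator of ARF GTPases, had a log2 fold change of 0.02 (SE 0.20), and Efr3a one of -0.13 (SE 0.20). Among its listed neighbours Pvt1 had the largest value in the upward direction with all libraries, and no test of the difference between neighbours was made. Trib1 moved from -2.12 without JMJD1B-/- replicate 1 to 1.15 without JMJD1B-/- replicate 2, where Pvt1 was at 0.95.

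The genes whose profile over the 4 libraries was most like that of Myc were Dvl3, Iah1 and Mgrn1. The measure was the Euclidean distance between mean-centred log2 profiles among 11212 genes, at 0.04 for each of these 3 genes and 0.77 for the median gene. Dvl3 for example had 7.94 and 7.26 RPKM in WT and 4.33 and 7.47 RPKM in JMJD1B-/-, the same single low library as Myc. Nearest to Pvt1 were Rrm2 at 0.09, Spryd4 at 0.12 and Mboat2 at 0.14, against 1.09 for the median gene. Rrm2, a subunit of ribonucleotide reductase, had 37.3 and 54.1 RPKM in WT and 82.1 and 75.4 RPKM in JMJD1B-/- HSPCs. These are likenesses over 4 libraries.

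Further MYC, MAX and MLX relatives were represented by 3 of 4 listed genes, with Mlxipl not among the entries. Mlxip, a glucose-sensing partner of MLX, had 16.3 and 14.7 RPKM in WT and 9.39 and 11.1 RPKM in JMJD1B-/- HSPCs. Both knockout libraries were lower, with a log2 fold change of -0.60 (SE 0.22, limma, unadjusted p = 0.0295, adjusted p = 0.44). The third Myc gene, listed as Mycl1, had 1.67 and 2.62 RPKM against 0.983 and 0.326 RPKM, a log2 fold change of -1.69 (SE 0.69, limma, unadjusted p = 0.043, adjusted p = 0.482). Both genes went over an unadjusted p of 0.05 without either WT library, as did Mlxip without JMJD1B-/- replicate 1 (0.0599) and Mycl1 without JMJD1B-/- replicate 2 (0.0668). Mlx, which encodes the partner of MLXIP, had 7.63 and 7.12 RPKM in WT and 9.25 and 10.3 RPKM in JMJD1B-/-, with an adjusted p of 0.61.

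Proteins that work with the network were tested in 4 lists, and in these 0 genes had an unadjusted p under 0.05 in limma, where 10.1% of all genes did. Of 18 genes of the SIN3 and histone deacetylase corepressor that MXD proteins bring in, 11 had a negative and 7 a positive log2 fold change, with a median of -0.12 against -0.02 over all genes tested. The lowest p belonged to Rbbp4, a histone-binding subunit, with 88.3 and 144 RPKM in WT and 87.2 and 68.2 RPKM in JMJD1B-/- (log2 fold change -0.55, adjusted p = 0.537). In the upward direction it was Sap18, at 0.39. Of 16 Myc cofactors, 10 were negative and 6 positive with a median of -0.02. At the ends stood Wdr5, a subunit of histone methyltransferase complexes that also contacts MYC, at -0.27, and Ruvbl2, an ATPase of chromatin complexes, at 0.42. Of 14 genes of Myc protein turnover, 8 were negative and 6 positive, with a median of -0.06. C330027C09Rik, the older name of Cip2a, whose protein shields MYC from the phosphatase PP2A, was at -0.30, and Aurka, a mitotic kinase that stabilizes MYCN, was at 0.33. Of 11 partners of MGA in its polycomb complex, 2 were negative and 9 positive with a median of 0.08, and Pcgf6, its defining subunit, was at 0.37 with an adjusted p of 0.604. The list medians also moved with 1 library left out, from -0.18 to 0.01 for the corepressor, -0.21 to 0.09 for the cofactors, -0.09 to 0.12 for turnover and -0.02 to 0.15 for the MGA partners. Rbbp4 then ranged from -0.90 to -0.19, Ruvbl2 from 0.09 to 0.75, Wdr5 from -0.58 to 0.04, Aurka from 0.13 to 0.53, C330027C09Rik from -0.46 to -0.13, Pcgf6 from 0.23 to 0.52 and Sap18 from 0.29 to 0.49. Each of these genes had an unadjusted p under 0.05 in limma with 1 of the knockout libraries left out, as had 21.6% of all genes without replicate 1 and 21.5% without replicate 2.

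Genes known to be activated by Myc leaned upwards in JMJD1B-/- HSPCs, and the lean changed with the library left out. The list was chosen with earlier results of these data known, so its shares are not independent evidence. Of its 54 genes, 48 had a positive and 6 a negative log2 fold change. Their median was 0.22 against -0.02 over all genes tested (0.147 against 0.0151 after quantile normalization). At an unadjusted p under 0.05, 6 genes or 11.1% were higher and 0 lower, where 3.81% and 6.33% of all genes were, and in 17 genes both knockout libraries were above both WT libraries (20.1% of all genes). Without JMJD1B-/- replicate 2 the median was -0.0005, with 2 genes higher and 4 lower, where the median over all genes was -0.10 and 6.13% of them were higher and 15.3% lower. When JMJD1B-/- replicate 1 was left out the median was 0.45, with 27 genes higher and 1 lower, beside 0.09 over all genes and 10.6% of them higher and 11.0% lower. Without WT replicate 1 it was 0.14 with 1 gene higher (1.04% of all genes), and without WT replicate 2 it was 0.30 with 3 genes higher (2.11% of all genes). Hspe1, a mitochondrial chaperonin, had 68.2 and 69.5 RPKM in WT and 112 and 129 RPKM in JMJD1B-/-. Its log2 fold change was 0.80 (SE 0.17, limma, unadjusted p = 0.00206, adjusted p = 0.211), and 0.70 to 0.91 with any 1 library left out. The other 5 were its partner Hspd1, the transferrin receptor gene Tfrc, the nucleolar Nolc1, the replication helicase gene Mcm5 and the prohibitin gene Phb2. Tfrc, which erythroid precursors express strongly, had 84.8 and 127 RPKM in WT and 148 and 172 RPKM in JMJD1B-/-, beside the erythroid marker sums above. In the other direction the lowest p belonged to Hk2, a glycolytic kinase, with 12.5 and 10.9 RPKM in WT and 9.36 and 6.04 RPKM in JMJD1B-/- (log2 fold change -0.63, adjusted p = 0.509, and -0.94 to -0.31 with 1 library left out).

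Genes known to be repressed by Myc leaned the other way. This list too was chosen with earlier results of these data known, so its shares are not independent evidence. Of 10, 9 were listed (Cdkn2b was not), and all 9 had a negative log2 fold change, with a median of -0.66 that kept its sign with any 1 library left out. At an unadjusted p under 0.05, 4 genes or 44.4% were lower, where 6.33% of all genes were, and 0 passed after adjustment. That count was 2 without WT replicate 1, 1 (Cebpa) without WT replicate 2, 3 without JMJD1B-/- replicate 1 and 6 without JMJD1B-/- replicate 2, with 0, 0, 2 and 5 genes lower after adjustment. Of all genes, 1.49%, 2.29%, 11.0% and 15.3% were lower in these fits. Cebpa, a transcription factor that directs granulocyte and monocyte differentiation, had 13.4 and 12.7 RPKM in WT and 1.05 and 2.36 RPKM in JMJD1B-/- HSPCs. Its log2 fold change was -2.96 (SE 0.41, limma, unadjusted p = 0.000129, adjusted p = 0.0768). Granulocyte markers summed to 298 and 206 RPKM in WT and 91.1 and 57.5 RPKM in JMJD1B-/-, and of 9 tested 6 were lower and 2 higher at an unadjusted p under 0.05. The 2 higher ones were the late granulocyte genes S100a8 and S100a9. The part of that difference in the value for Cebpa was not tested.

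Thbs1, which encodes the matrix protein thrombospondin and is abundant in the megakaryocyte lineage, had 30.5 and 47.7 RPKM in WT and 25.2 and 18.5 RPKM in JMJD1B-/-. Megakaryocyte markers were lower in the knockout as well. Ndrg1, a differentiation-related gene, had 20.8 and 15.9 RPKM against 9.35 and 14.1 RPKM. Cdkn1a, which encodes the cell cycle inhibitor p21 and is also a p53 target, had 1.37 and 2.28 RPKM in WT. In JMJD1B-/- it was at 0.653 RPKM in replicate 2 and listed at 0 in replicate 1. The study itself reports lower p21 in JMJD1B-/- HSPCs, so this direction is not independent evidence. The cell cycle inhibitor genes Cdkn1b and Cdkn1c did not pass, at log2 fold changes of -0.18 and -0.27.

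Cell division was described by 20 proliferation genes, a list also chosen with earlier results of these data known. Of these, 17 had a positive and 3 a negative log2 fold change, with a median of 0.22 (0.10 without WT replicate 1 and 0.13 without JMJD1B-/- replicate 2), and in 14 both knockout libraries were above both WT libraries (20.1% of all genes). Rrm2, named above as nearest to Pvt1, and Ccna2, a cyclin of DNA replication, were higher at an unadjusted p under 0.05 (3.81% of all genes), with log2 fold changes of 0.81 and 0.43 (limma, adjusted p = 0.32 and 0.484). Ccna2 was over 0.05 with any 1 library left out (0.0536 to 0.283), and Rrm2 without WT replicate 1 (0.0792). Mki67 had 206 and 244 RPKM in WT and 293 and 250 RPKM in JMJD1B-/-. Cenpf, a kinetochore gene, was at -0.11.

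**Figure D4:**
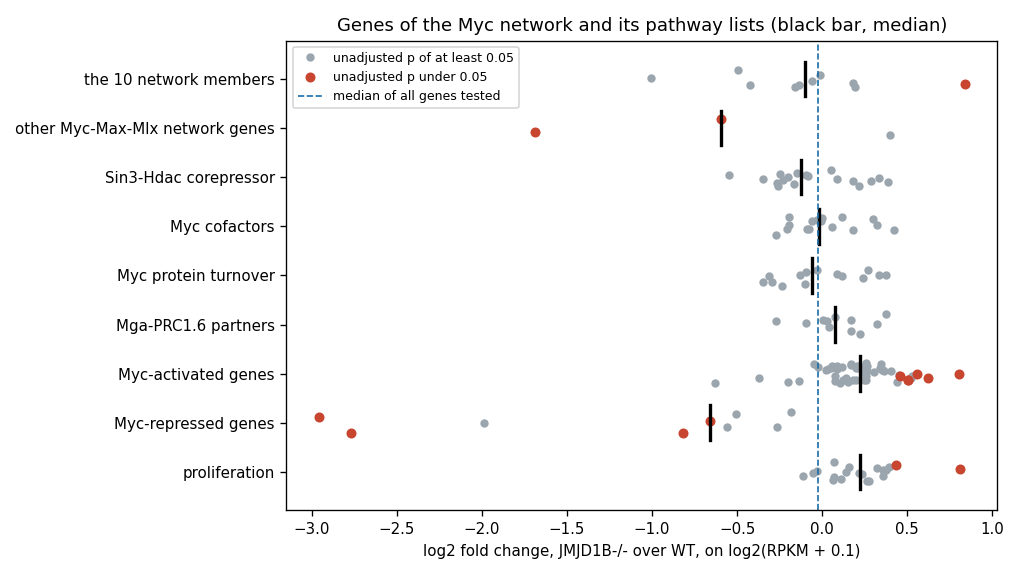
Log2 fold change, JMJD1B-/- over WT, of each gene of the network and of its pathway lists; points are jittered vertically, red points have an unadjusted p under 0.05 in limma, black bars are list medians and the dashed line is the median of all genes tested (-0.02). Myc-activated genes have a median of 0.22 and Myc-repressed genes of -0.66.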

How the data were processed

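RNA-seq of bone marrow HSPCs was analysed from 4 libraries, 2 per genotype, grouped by the sample labels. The authors deposited 1 table of RPKM values to which they had added 1, and RPKM was taken as the deposited value minus 1. The submitters' processing notes name TopHat2, Novoalign and mm9 without saying which served the RNA. The kit was TruSeq RNA V2, and the counting program and annotation are not given in the sources used here. The table holds 12024 entries, each with a highest value of at least 2.00, and 84 entries that share 42 names were averaged by name.

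Deposited values were found to be base coverage scaled by whole-library totals. The totals were recovered from the digits and divided by the read length of 51 bases, of which 53.5% of 1576 low base sums were whole multiples (next unrelated length 1.02%). A transcript length was resolved for 89.8% of entries, not for Mga. Read numbers and their exact Poisson 95% intervals cover counting error only, and 3 reads on a 1 kb transcript are 0.122 to 0.491 RPKM.

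Differences in log2(RPKM + 0.1) were tested in R 4.3.3 by limma 3.58.1 (lmFit, then eBayes with a trend), two-sided, for the 11863 genes whose mean RPKM reached 0.5, all 10 members among them, with Benjamini-Hochberg adjustment over these genes. This scale understates changes of low genes. Ratios were compared with an exact permutation test. Scripts were run in Python 3.11.15 with numpy 2.4.6, pandas 2.3.3, scipy 1.17.1 and matplotlib 3.10.9, and limma was tested on simulated data. Named genes were all members, Kdm3b, the lowest p in each direction of each list, the 3 nearest listed neighbours on each side, the 3 genes of mean RPKM at least 1 most alike to Myc and to Pvt1, and, chosen after their values were seen, the other called genes of the lists, Mlx, Cdkn1b, Cdkn1c and Mki67. The members and lists were chosen with earlier results of these data known. Names were matched to RefSeq GRCm38.p6 (11901 of 11982), used for gene order and promoter sequence and not for coordinates of the table. Replicates are biological by the series design, and p-values measure only the spread between these libraries. Alternatives were the pseudocount, the filter, 2 scalings, limma without a trend, a test of each gene alone with equal variances, the replicate number as a block, and leaving out each library. ChIP-seq samples were not used here.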

Additional observations from a re-analysis of the deposited data

How the results depend on the processing

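With 2 libraries per genotype, adjusted calls were few, with 5 over all genes and 0 among the members. Leaving a library out leaves a lone library whose spread limma takes from the other genotype. Over all genes this gave 4 adjusted calls without WT replicate 1, 0 without WT replicate 2, and for the knockout 630 without replicate 1 and 669 without replicate 2. The log2 fold change then ranged from -0.83 to -0.0233 for Myc, -0.87 to 0.55 for Mycn, 0.53 to 1.15 for Pvt1, -0.43 to 0.16 for Mxd1, -2.16 to 0.15 for Mxd3, -0.79 to -0.20 for Mxd4, -0.12 to 0.0891 for Mga, -2.82 to -2.47 for Kdm3b (adjusted p up to 0.796) and -0.58 to 0.0411 for Wdr5, and the log2 ratio of Myc to the summed antagonists from -0.61 to 0.11. Members lower after adjustment numbered 0 to 2, members lower at an unadjusted p under 0.05 numbered 0 to 3, and members higher numbered 0 to 1. Over all pathway lists 0 to 5 genes were lower and 0 to 5 higher after adjustment, and 1 to 14 lower and 1 to 37 higher at an unadjusted p under 0.05, against 0, 0, 6 and 8 with all libraries. The values above without JMJD1B-/- replicate 2 hold the adjusted calls of Myc and Mxd3.

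Among the other settings the cause of a changed call was not tested. The gene-by-gene test with equal variances gave Pvt1 an unadjusted p of 0.123 at a log2 fold change of 0.84. Mxi1 had an unadjusted p of 0.0423 in that test, at 0.19. It had 2 pathway genes lower and 5 higher, where 4.32% and 2.93% of all genes were. limma without a trend left 2 pathway genes higher, where 2.92% of all genes were. Quantile normalization turned Mnt to 0.0321. For Kdm3b the adjusted p was 0.0603 with median-ratio scaling (-2.63), 0.0974 with quantile normalization (-2.59), 0.212 without a trend (-2.65) and 0.608 in the gene-by-gene test (-2.65). A pseudocount of 1 left 1 pathway gene lower after adjustment, with 18 genes called in all. Deviations of same-numbered libraries had a correlation of -0.05 over 11863 genes, so no pairing by replicate number was seen. With 2 libraries per genotype this check cannot exclude a pairing. With the replicate number as a block, Myc at -0.43 had an unadjusted p of 0.0482 in limma. This made 1 member lower, where 7.7% of all genes were. Pathway lists then had 1 gene lower and 2 higher after adjustment, with 256 genes called in all.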
